A study of Mus musculus with 6 samples.

Results

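Connexins and pannexins are the membrane proteins through which neighbouring cells exchange ions and small molecules, and 9 of their genes are described here in embryonic motoneurons: Gja1, Gja4, Gja5, Gjb2, Gjb6, Gjc1, Gjd2, Panx1 and Panx2. They were taken by symbol, as every probe set that the annotation of the array gives to exactly 1 of these genes, which yielded 16 probe sets for 9 of the 18193 genes named on the array. RNA came from the GFP-positive motoneuron region of the cervical spinal cord of HB9::GFP transgenic mouse embryos at E11.5. The left and the right region were laser-captured from the same sections of 3 littermates, giving 3 left and 3 right pools on 6 arrays. All pools carry the transgene and none received a treatment. GFP is driven by the promoter of HB9 (Mnx1), a motoneuron transcription factor, and the capture takes whatever lies among the marked cells. Of the motoneuron marker genes, 10 of 10, among them Isl1, Chat and Slc18a3, reached a signal of 200 in at least 1 pool. So did 9 of 12 genes of mesenchyme, 7 of 8 of mural cells and 7 of 8 of microglia and macrophages. The counts were 7 of 12 for endothelium and 6 of 10 for neural progenitors. They were 5 of 7 measured genes for erythroid cells and 3 of 4 for neural crest, glia and sensory neurons. Each marker was counted by its probe set that was brightest on average. By any probe set, 10539 of the 18193 genes on the array reached this signal. Reaching this signal therefore does not by itself identify the cells.

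Connexins assemble as hexamers in the membrane, and hexamers of adjoining cells dock into gap junction channels that couple the cells electrically and chemically. Pannexins are related in topology but form single-membrane channels, best known for the release of ATP. Before birth, spinal motoneurons are coupled to each other by gap junctions, and this coupling declines as chemical synapses mature. Gjd2 encodes the connexin typical of neurons (Cx36). Gjc1 (Cx45) is found in embryonic neurons and in the developing heart and vessel wall, and Gja1 (Cx43) in radial glia, astrocytes and mesenchyme. Gja4 (Cx37) and Gja5 (Cx40) are connexins of the arterial endothelium, whereas Gjb2 (Cx26) and Gjb6 (Cx30) belong to glia, meninges and epithelia.

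The unit throughout is the MAS5 signal, a linear measure of brightness that the authors scaled on each array. The methods of the study disregard a transcript whose highest signal stays under 200, and a probe set was tested here if it reached that limit in at least 1 pool. By this limit 10 of the 16 probe sets, for 4 of the 9 genes (Gja1, Gjc1, Gjd2 and Panx1), were tested. Over the array, controls left out, 21853 of 45037 probe sets and 10539 of 18193 genes were tested. The other 5 connexin and pannexin genes stayed under the limit in all 6 pools. This is no proof of absence, because detection calls are not used here and probe sets differ in sensitivity. In 4 probe sets, a pair for Gja1 and 1 each for Gjc1 and Panx1, the signal reached 200 in all 6 pools. For the same reason no level of a probe set is set against that of another below, and only pools are compared.

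**Figure D1:**
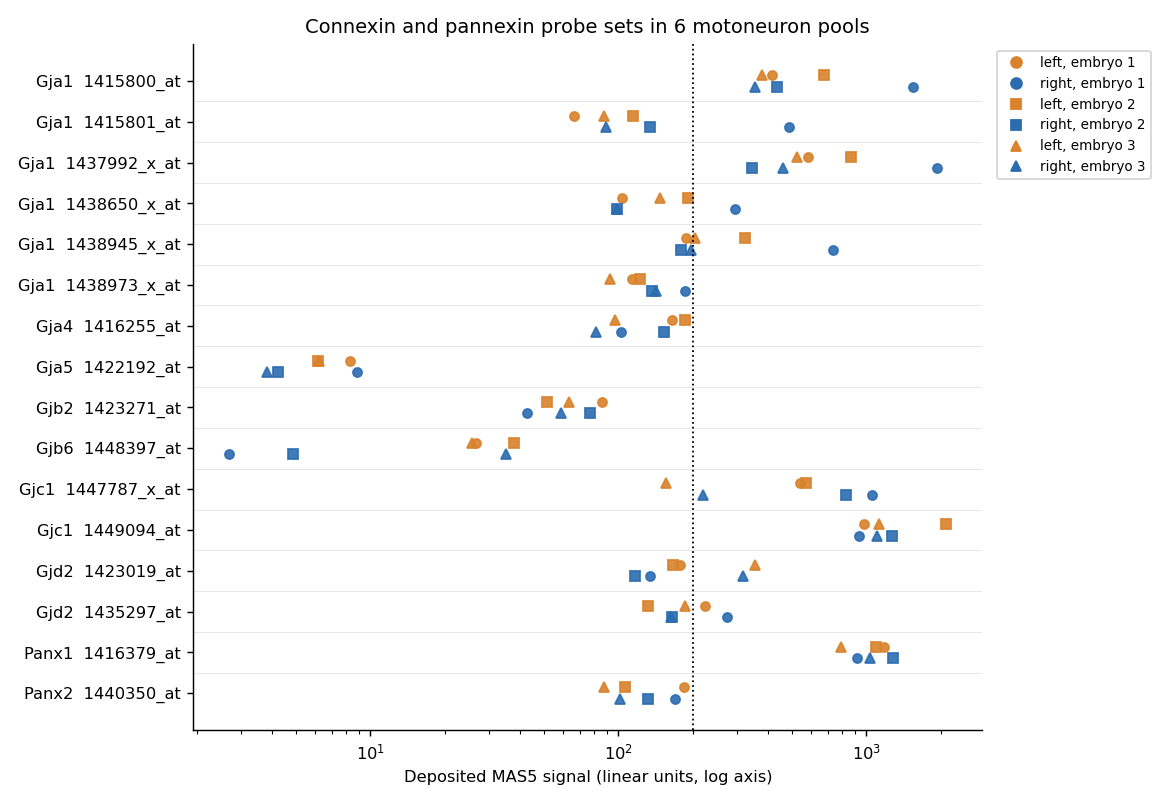
Deposited MAS5 signal (log axis) of the 16 connexin and pannexin probe sets in the left (orange) and right (blue) pools of embryos 1 (circles), 2 (squares) and 3 (triangles), with the limit of 200 as a dotted line. The blue circle of the right pool of embryo 1 is the highest point in all 6 rows of Gja1, and the rows of Gja4, Gja5, Gjb2, Gjb6 and Panx2 lie wholly under the limit.

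The comparison of right with left asks whether cervical motoneurons, whose axons form asymmetric phrenic nerves, differ between the sides in these channels. No connexin or pannexin was called. With limma, which was fitted over all 21853 tested probe sets with side and embryo as terms, 0 of the 10 tested member probe sets passed an adjusted p of 0.05, against 0.0% of all probe sets. At an unadjusted p under 0.05 there was 1 (Gjc1), where 3.4% of all probe sets passed. A fold rule taken from the methods asks for the same sign in 3 embryos and for a change beyond 1.5-fold (0.58 on the log2 scale) on average and in at least 2 of them. The study applied it to transcripts called present in some pool of each embryo, a filter that was not applied here. It was met by 0 of the 10 on the right (2.4% of all probe sets) and 0 on the left (1.55%). The same sign in all 3 embryos was seen in 4 of the 10, for Gja1, Gjd2 and, in opposite directions, Gjc1, and in 23.5% of all probe sets. In none of the 10 were the signals of the 3 left pools wholly apart from those of the 3 right pools. The share of such probe sets over the whole array was not taken, so this count is not read as a trait of the members. The mean log2 ratios of right over left ran from −0.36 to 1.04 (the latter for Gja1 1415801_at), with a median of 0.12 beside 0.02 over all tested probe sets. The smallest p that exact flipping of the signs allows in 3 pairs is 0.25, so the size and the interval of each difference are given.

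The ratio of Gja1 varied more between embryos than that of any other tested member, with an SD of 1.33 to 1.60 (log2) over its 5 tested probe sets. Of these, 1415801_at and 1438650_x_at were tested only through 1 high pool. The untested 1438973_x_at had an SD of 0.29. The highest signal of Gja1 fell in the same pool by all 6 probe sets. The start region of Gja1 is shown for these reasons. The window runs from 250 bases before to 50 bases after the RefSeq start site (GRCm38.p6, chr10:56377050-56377349, plus strand, 5′ to 3′). Capitals mark the only match in it to TGANTCA, the site of AP-1 factors, which reads alike on both strands and begins 19 bases before the start site (position −19).
Gja1: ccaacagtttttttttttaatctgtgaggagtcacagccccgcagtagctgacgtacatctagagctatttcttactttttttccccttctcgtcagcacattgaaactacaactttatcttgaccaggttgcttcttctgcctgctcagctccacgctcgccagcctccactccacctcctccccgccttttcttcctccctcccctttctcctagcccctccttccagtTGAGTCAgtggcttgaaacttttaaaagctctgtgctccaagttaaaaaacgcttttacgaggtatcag
Such a match occurs in 7.81% of 32851 windows of this length, and in 1 of the 7 member genes for which a window was at hand. Its letters are 47.7% G and C, beside a median of 52.7% over all windows. The match is a description of the letters, and binding was not measured.

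Read by probe set 1415800_at, the signal of Gja1 in embryo 1 was 418 in the left pool and 1548 in the right one. Left before right, it was 672 and 434 in embryo 2, and 381 and 355 in embryo 3. The right pool of embryo 1 thus stood 2.30-fold above the next highest pool, the left pool of embryo 2, and the sides overlapped. The log2 ratios of 1.89, −0.63 and −0.10 gave a mean of 0.39 ± 1.33 (SD, n = 3 embryos), with a limma interval (95%) from −0.58 to 1.35 and an adjusted p of 0.974. Probe set 1437992_x_at gave, in the same order, 579 and 1918 (embryo 1), 866 and 347 (embryo 2), then 524 and 461 (embryo 3). Its right pool of embryo 1 was again the highest and its right pool of embryo 2 the lowest, so that the log2 ratio turned from 1.73 to −1.32 between these littermates. Its mean was 0.07 ± 1.54 (SD, n = 3 embryos), with an adjusted p of 0.995 by limma.

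The other 4 probe sets of Gja1 also had their highest signal in the right pool of embryo 1. Probe set 1438945_x_at read 736 there and 179 to 324 in the others, and 1438650_x_at read 296 there and 98.8 to 190 elsewhere. Probe set 1415801_at read 489 against 66.2 to 134, a log2 ratio of 2.88 in embryo 1 and of 0.22 and 0.02 in the others. Probe sets 1438650_x_at and 1415801_at entered the test through that pool alone, so their selection and their ratio are not independent. Probe set 1438973_x_at stayed under the limit, with 186 in that pool and 92.7 to 142 in the rest. Over the 6 probe sets the right pool of embryo 1 exceeded the left one by 1.63-fold to 7.38-fold. In embryo 2, 4 of the 6 were higher on the left, by 1.55-fold to 2.50-fold, and these same 4 (1415800_at, 1437992_x_at, 1438650_x_at and 1438945_x_at) were higher on the left in embryo 3. Probe sets whose name ends in x_at can read related sequences as well. Across the 6 pools the log2 signals of these probe sets correlated at 0.43 to 0.98, lowest for 1438973_x_at with 1438650_x_at. These are descriptions over pools that share 3 embryos.

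Without embryo 1, the mean log2 ratio of Gja1 lay between −0.76 and 0.39 over its 6 probe sets, at −0.37 for 1415800_at and −0.75 for 1437992_x_at. In 4 of the 6 that mean lay below 0. Summed markers of several cell types were also higher in the right than in the left pool of embryo 1. The endothelial sum was not, at 2705 (left) and 2403 (right). The summed signal of 12 mesenchyme genes was 18307 in the right pool of embryo 1 and 2561 in the left, with 9 of the 12 at the limit against 4. Over all pools the sum ran from 1790 to 2602 on the left and from 2626 to 18307 on the right, and Col5a1, Twist1 and Meox1 were below the limit in every pool by the probe set that was brightest on average. In embryo 2, however, the mesenchyme sum was 3253 on the right and 1790 on the left, whereas 1415800_at and 1437992_x_at read higher on the left. The sum of 8 mural cell genes was 1742 to 2492 on the left and 1664 to 4751 on the right, highest in the right pool of embryo 1, with 7 of 8 at the limit in some pool and Tagln below it in all. In embryo 1 most of the difference came from Acta2, at 212 (left) and 2109 (right). Pdgfrb, Notch3 and Kcnj8 were also higher on the right there. Rgs5 1417466_at (977 and 669) and Cspg4 (246 and 230) were lower, and the probe sets of Abcc9 disagreed. The erythroid sum (5 of 7 measured genes at the limit, Hba-a1 and Gata1 below it) turned between the embryos as most Gja1 probe sets did. It was 20463 (left) and 36703 (right) for embryo 1, 25079 and 22787 for embryo 2, then 37758 and 32594 for embryo 3. Most of this sum was the signal of Hbb-y, which by 1436823_x_at ran from 19040 to 33198. Of the dimmer genes, Alas2 turned in the same way, but Slc4a1 was higher on the right in embryo 3. Probe set 1437810_a_at of the embryonic globin gene Hbb-bh1 gave log2 ratios of 1.72, −0.67 and −0.23, beside 1.89, −0.63 and −0.10 for Gja1 1415800_at. The other probe sets of Hbb-bh1 were not higher on the left in embryo 3, with 1.56, −0.36 and 0.0009 (1437990_x_at) and 2.16, −0.77 and 0.04 (1450736_a_at). Hba-x was higher on the right in all 3 embryos (1.53, 0.36 and 0.21). The motoneuron sum ran from 56972 to 75724 on the left and from 56772 to 84073 on the right, with the right pool of embryo 1 the highest. Nefl weighed most in it, at 32336 (left) and 40510 (right) in embryo 1 by 1426255_at. In that embryo Isl1, Isl2, Mnx1, Ret and Chat were lower on the right. Slc18a3, Slc5a7, Prph 1422530_at and Pou3f1 1460038_at were higher there. Neural progenitor genes, of which 6 of 10 reached the limit, summed to 8906 to 15676 on the left and 10900 to 15471 on the right. Olig2, Nkx6-1, Slc1a3 and Hes1 were below the limit in all pools. In embryo 2 the progenitor sums of the sides were nearly equal, at 15569 and 15471. The part of these cells in the Gja1 signal was not tested, and in a pool of captured tissue a larger number of cells of a type cannot be told apart from more RNA per cell.

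**Figure D2:**
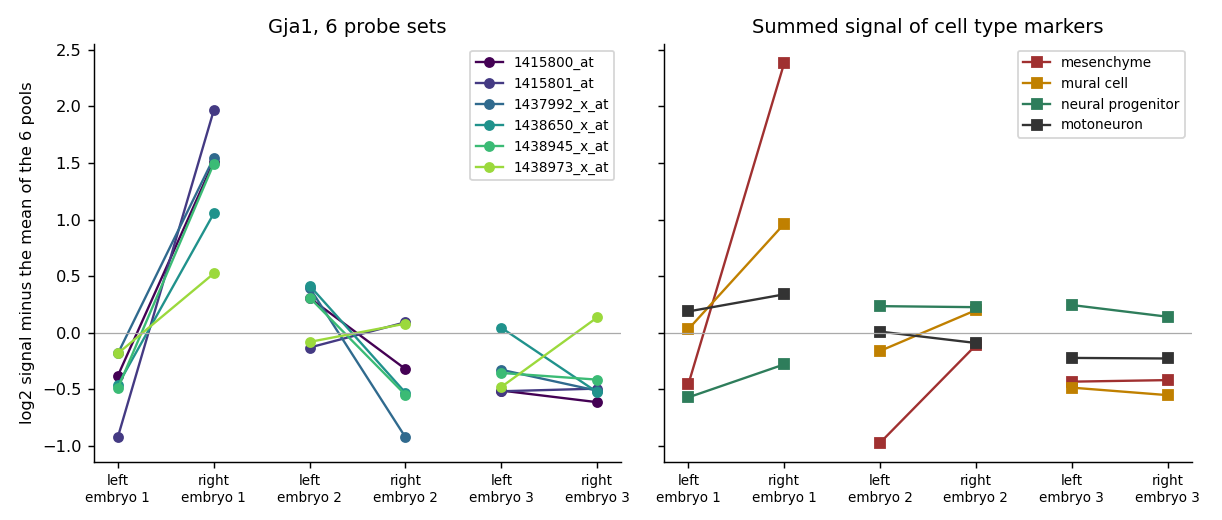
Log2 signal minus the mean of the 6 pools, for the 6 probe sets of Gja1 (left panel) and for the summed signals of 4 sets of cell type markers (right panel), with a line joining the left and right pool of each embryo. All Gja1 lines and all 4 marker lines climb in embryo 1, the mesenchyme and mural cell sums the most among the markers. In embryo 2 most Gja1 lines descend while the mesenchyme sum climbs.

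Gjc1 was read by a pair of probe sets that disagreed. By 1449094_at, which the annotation ties to a RefSeq mRNA, embryo 1 gave 974 (left) and 936 (right), embryo 2 gave 2101 and 1270, and embryo 3 gave 1129 and 1106. The left pool of embryo 2 stood alone, 1.66-fold above the right pool of the same embryo, and the other embryos were nearly level between the sides. The mean log2 ratio was −0.27 ± 0.40 (SD, n = 3 embryos), with an interval from −0.73 to 0.19, and −0.04 without embryo 2. By 1447787_x_at, tied to an expressed sequence tag, left and right read 542 and 1057 (embryo 1), 571 and 826 (embryo 2), then 156 and 218 (embryo 3). Here both pools of embryo 3 lay below all pools of embryos 1 and 2, and the right pool was the brighter one in each embryo. The log2 ratios were 0.96, 0.53 and 0.49, with a mean of 0.66 ± 0.26 (SD, n = 3 embryos) and an interval from 0.12 to 1.20. Only embryo 1 passed 0.58, so the fold rule was not met. By limma this was the member with the smallest unadjusted p (0.0222; adjusted p = 0.974, range over the alternatives 0.917 to 1). It stood at rank 215 of 21853. The ratios of the probe sets differed by 1.02, 1.26 and 0.52 in the 3 embryos (mean 0.93 ± 0.38, exact sign-flip p = 0.25, two-sided, the smallest 3 pairs allow). Their log2 signals correlated at 0.04 over the 6 pools. No single ratio is therefore given for the gene.

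The neuronal connexin Gjd2 was near the limit. Its start region is printed as that of the connexin named first for coupling between neurons, over 250 bases before to 50 after the RefSeq start (GRCm38.p6, chr2:114013570-114013869, minus strand, 5′ to 3′). Capitals mark its only match to the GC box GGGCGG on either strand, which begins 33 bases before the start site (position −33).
Gjd2: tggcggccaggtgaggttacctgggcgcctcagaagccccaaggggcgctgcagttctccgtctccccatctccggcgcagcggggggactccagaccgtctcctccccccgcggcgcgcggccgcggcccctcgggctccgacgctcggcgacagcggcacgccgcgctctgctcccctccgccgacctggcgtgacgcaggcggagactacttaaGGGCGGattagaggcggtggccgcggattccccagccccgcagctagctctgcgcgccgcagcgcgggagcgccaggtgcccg
A match to these letters occurs in 35.7% of the 32851 windows and in 4 of the 7 member genes with a window (Gja4, Gja5, Gjb2 and Gjd2), and 75.0% of the letters are G or C.

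By probe set 1423019_at, Gjd2 read 176 (left) and 134 (right) in embryo 1, 166 and 116 in the next and 356 and 319 in embryo 3. Both pools of embryo 3 were the highest, and the left pool was the brighter one in 3 of 3 embryos. The ratios on the log2 scale were −0.40, −0.52 and −0.16, with a mean of −0.36 ± 0.18 (SD, n = 3 embryos), an interval from −1.17 to 0.45 and an adjusted p of 0.974 by limma. Probe set 1435297_at read 224 and 275 (embryo 1), 131 and 165 (embryo 2), then 185 and 163 (embryo 3). It did not share the high signal of embryo 3, and its ratio pointed to the right in embryos 1 and 2. Its mean log2 ratio was 0.15 ± 0.29 (SD, n = 3 embryos), with an interval from −0.69 to 0.99. The ratios of the pair differed by −0.70, −0.84 and 0.02 (exact sign-flip p = 0.50, two-sided), and their log2 signals correlated at −0.20 over the 6 pools. Each reached the limit in 2 of the 6 pools, in embryo 3 for the first and in embryo 1 for the second.

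Panx1, the widely expressed pannexin of ATP release, differed little between pools. Left and right read 1178 and 913 in embryo 1, then 1095 and 1285 (embryo 2), then 788 and 1031 (embryo 3). The higher side changed from left in embryo 1 to right in the others, and the pools spanned 788 to 1285 in all. The mean log2 ratio was 0.08 ± 0.40 (SD, n = 3 embryos), and −0.00267 after scaling the arrays to 1 median. Its interval, −0.39 to 0.56, was the only one of the 10 that lay inside −0.58 to 0.58. A difference of 1.5-fold between the sides was thus outside this interval for Panx1, whereas the intervals of the other 9 reached beyond that size.

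**Figure D3:**
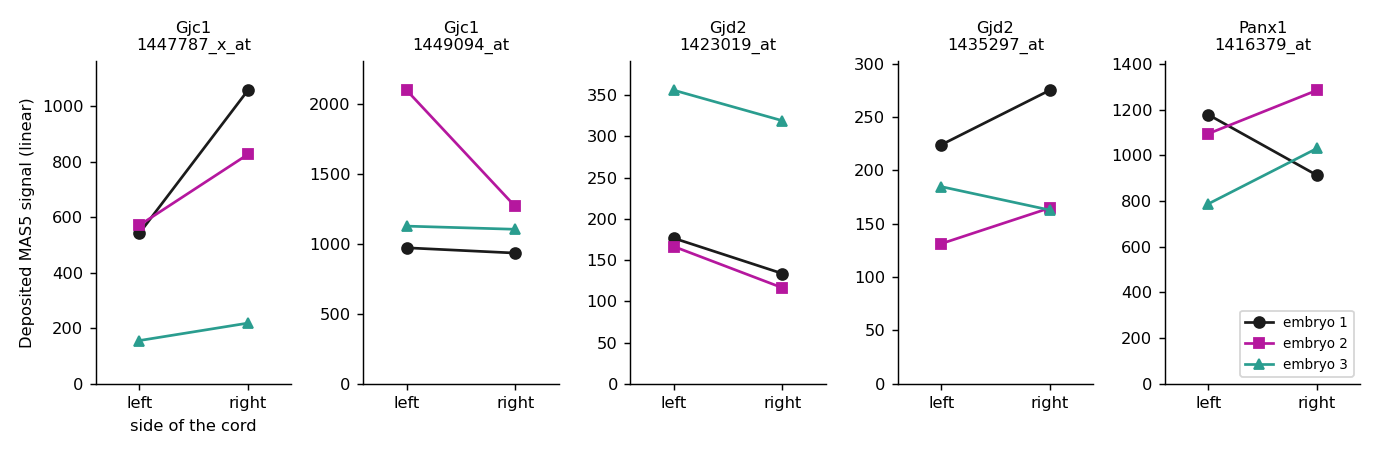
Deposited MAS5 signal (linear axis from 0) on the left and the right of embryos 1, 2 and 3 for the probe sets of Gjc1, Gjd2 and Panx1. The lines climb in all 3 embryos for Gjc1 1447787_x_at and descend in all 3 for Gjc1 1449094_at and Gjd2 1423019_at, and those of Panx1 cross.

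In 7 of the 10 tested member probe sets, or 70.0%, the range of the 3 embryo means on the log2 scale exceeded the mean size of the difference between the sides. The share over all tested probe sets was 68.2%, so this count says nothing particular about the members, and a range of 3 means tends to exceed such a mean in any case. The range of embryo means was widest for Gjc1 1447787_x_at, at 2.04 against 0.66, and for Gjd2 1423019_at it was 1.28 against 0.36. For Panx1 it was 0.40 against 0.33. An embryo is 1 animal, so embryos were not tested against each other.

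**Figure D4:**
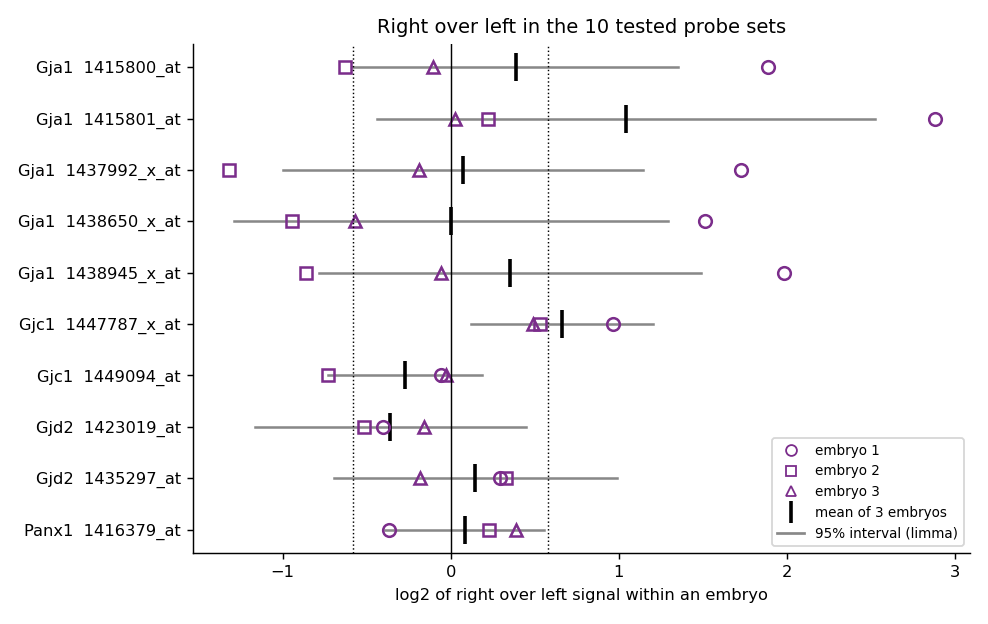
Log2 of right over left signal in embryos 1 (circles), 2 (squares) and 3 (triangles) for the 10 tested probe sets, with the mean (black bar) and the 95% interval of limma (grey line); dotted lines mark −0.58 and 0.58. Embryo 1 lies far to the right in all 5 rows of Gja1, and the interval of Gjc1 1447787_x_at (0.12 to 1.20) is the only one that leaves out 0.

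The 5 genes under the limit were read as follows. In embryos 1, 2 and 3, Gja4 read 164, 185 and 96.5 for the left pools and 102, 153 and 80.9 for the right pools. It was higher on the left in 3 of 3 embryos, at log2 ratios of −0.68, −0.27 and −0.25. Markers of endothelium, the usual source of Gja4, summed to 2459 to 3122 on the left and 2058 to 3477 on the right, with 7 of 12 genes at the limit in some pool and Cdh5, Tek, Tie1, Emcn and Sox18 below it in all. Like Gja4, this sum was higher on the left in embryo 1 (2705 against 2403) and embryo 3 (2459 against 2058). In embryo 2, with 3122 on the left and 3477 on the right, it was not, and the part of endothelium in the Gja4 signal was not tested. Gja5, the other arterial connexin, read 3.81 to 8.80 over the 6 pools. Gjb2 read 42.8 to 85.8, with the extremes in the right and the left pool of embryo 1. Gjb6, the neighbour of Gjb2 on chromosome 14 (GRCm38.p6), read 2.70 to 37.9, and no ratio is drawn from signals this far below the limit. Panx2, the pannexin best known from neurons, read 184 and 170 (embryo 1), 107 and 132 (embryo 2), then 87.3 and 102 (embryo 3), left before right. Both pools of embryo 1 were the highest, and its log2 ratios of −0.12, 0.31 and 0.22 changed sign between embryos.

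Another 14 genes of the families were listed for comparison. The annotation gives probe sets for 8 of them alone, and 0 of their 13 probe sets reached the limit, with a highest signal of 54.7. Proteins that bind connexins or govern their traffic and turnover, such as the scaffold Tjp1, the trafficking receptor Cnst and the ubiquitin ligase Nedd4, were measured by 23 tested probe sets for 11 genes. None of the 23 met the fold rule, beside 2.4% (right) and 1.55% (left) of all tested probe sets. By limma 0 passed, either adjusted or at an unadjusted p under 0.05 (3.4% of all tested probe sets). Their mean log2 ratios ran from −0.22 to 0.37 with a median of 0.01. The Lrrc8 subunits, which form volume-regulated anion channels of a related fold, had 0 calls among 5 probe sets and a median of −0.29. With shares this low over all probe sets, 0 calls among 23 or among 5 say nothing particular about these genes.

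Receptors and enzymes for extracellular ATP and adenosine, the signals downstream of pannexin channels, reached the limit in 7 probe sets of 4 genes (P2rx3, P2rx4, P2ry12 and P2ry13). The fold rule was met on the left by 2 of the 7 and on the right by 0. Both reached 200 in the left pool of embryo 2 alone, so they were tested only through the side on which they were high, and the count is not read against the share of all probe sets. P2rx3, an ATP-gated channel typical of sensory neurons, read by 1458396_at 105, 222 and 133 for the left pools of embryos 1, 2 and 3 and 19.4, 18.1 and 113 for the right pools. The right pools of embryos 1 and 2 were the lowest. Its mean log2 ratio was −2.10 ± 1.71 (SD, n = 3 embryos; adjusted p = 0.974 by limma). P2rx4, the ATP-gated channel also known from microglia, read by 1452527_a_at 91.4, 225 and 124 for the left pools and 45.0, 87.4 and 75.1 for the right pools, a mean log2 ratio of −1.04 ± 0.32. Other probe sets of these genes did not share this. Probe set 1425093_at of P2rx3 averaged −0.28 ± 0.72, and 1425525_a_at of P2rx4 averaged −0.38 ± 0.79 with the right pool the brighter one in embryo 1. The third of P2rx4, 1441772_at, averaged 0.71 ± 2.40. Markers of neural crest, glia and sensory neurons summed to 693 to 1037 on the left and 918 to 1017 on the right, with 3 of 4 measured genes at the limit in some pool and Erbb3 below it in all. Markers of microglia and macrophages summed to 2008 to 2393 on the left and 2375 to 2677 on the right, with Aif1 alone below the limit in all pools, and their part was not tested.

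Among the cell type markers, 6 of 15 tested mesenchyme probe sets met the fold rule on the right (Col1a2 by a pair of probe sets, Meox2, Prrx1, Col5a1 and Fbln1). Of the 6, 3 (Col1a2 1423110_at, Meox2 and Col5a1) reached 200 in the right pool of embryo 1 alone and Prrx1 in right pools alone, so these 4 were tested only through the side on which they were high, and the count is not read against the share of all probe sets. Pax6 was the only progenitor gene to meet the fold rule, by 1 of 11 tested progenitor probe sets. Its mean log2 ratio by 1452526_a_at was 0.97 ± 0.19 (SD, n = 3 embryos, adjusted p = 0.974 by limma). Left before right, Pax6 read 77.4 and 174 (embryo 1), 217 and 418 (embryo 2), then 106 and 184 (embryo 3). It reached 200 in embryo 2 alone. Motoneuron, endothelial, mural, erythroid, microglial and neural crest markers had 0 calls on either side, beside 2.4% (right) and 1.55% (left) of all tested probe sets. For Gja1, Gjc1 and Panx1, the genes most alike over the 6 pools were sought among 12899 probe sets at 200 or more in every pool. They were Eif1ax (r = 0.997), Ccm2 (0.994) and Eloc (0.991) for Gja1 1415800_at. For Gja1 1437992_x_at they were Ppcdc (0.993), Glo1 (0.991) and Dnajc3 (0.988). H13 (0.996), Rtn4 (0.993) and 4921524J17Rik (0.992) were nearest to Gjc1 1449094_at, and Map2k2 (0.992), Jag1 (0.977) and Mkks (0.976) to Panx1. These are Pearson correlations of log2 signal over 6 pools that share embryos and array scaling, and the leading genes of the Gja1 probe sets differed from one to the other. The best 3 of 12899 over only 6 pools are high by selection, so these values are not read as shared regulation. Every gene named for Gja1 was highest in the right pool of embryo 1. Every gene named for Gjc1 was highest in the left pool of embryo 2.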

How the data were processed

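RNA of laser-captured left and right GFP-positive cervical motoneuron regions of 3 HB9::GFP embryos (E11.5) was amplified, biotin-labelled and hybridised to 6 Affymetrix mouse arrays. The deposited intensity values are signals that the authors computed with MAS5 in Affymetrix Expression Console (version not given in the sources used here), linear and scaled on each array. Of 45101 probe sets, 64 controls were left out, 34945 were annotated to 1 gene, 932 to several and 9160 to none. The symbols of all 9 members were current by gene identifier. Signals were taken to log2 without an added constant and without further scaling. Probe sets with a highest signal of at least 200 (21853) entered limma 3.58.1 (R 4.3.3) in a two-sided model of side plus embryo. Variances were moderated along the mean signal, and p-values were adjusted after Benjamini and Hochberg across the whole table (threshold 0.05). The fold rule follows the fold step of the methods without the filter on present calls that the study put before it, so its counts are not those of the study's procedure. Medians of the arrays ran from 99.6 to 118 and 38.3% to 40.1% of probe sets reached 200. The number of arrays limits the precision.

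Pools of an embryo come from the same animal and sections and were paired. After subtraction of the side means they correlated at 0.241, 0.215 and 0.495 in embryos 1, 2 and 3. The members and gene lists were chosen with earlier results of these data known. Named genes were the members, list genes that met the fold rule (up to 8 per list), other family genes at the limit, and the 3 genes most correlated with each member at 200 or more in all pools. Promoter windows are from RefSeq (GRCm38.p6), where 7 of the 9 members matched. Gjc1 and Panx2 were not matched. Marker sums used the brightest probe set of each gene. The fit was run on simulated data with planted shifts larger than 1.5-fold. That run does not show whether a 1.5-fold difference could be found. The alternatives changed the scaling (quantile normalization, equal medians), added 50 before log2, moved the signal limit (none, 500 on the highest, 200 on the mean), dropped the embryo term or the variance trend, left out each embryo in turn, raised the fold limit to 2, asked for it in all 3 embryos, or kept only probe sets of 1 gene. Python 3.11.15 with pandas 2.3.3 was used for summaries and figures.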

Additional observations from a re-analysis of the deposited data

How the results depend on the processing

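The count of called connexin and pannexin probe sets was 0 by limma in the reported fit and under all 12 alternatives, no term for embryo (no replicate block) included. It was also 0 on either side by the fold rule under every alternative run for it, with each embryo left out (0 to 0), with the 2-fold limit and with the limit in all 3 embryos. At an unadjusted p under 0.05, the number of member probe sets was 1 in the reported fit, 0 without the replicate block and 2 without embryo 2 (Gja1 1415800_at and 1437992_x_at, both higher on the right). Without embryo 1 the probe set was Gja1 1437992_x_at, higher on the left, in place of that of Gjc1. With embryo 1 left out, the mean log2 ratio went from 1.04 to 0.12 for Gja1 1415801_at and from 0.07 to −0.75 for Gja1 1437992_x_at. The sign of the mean changed under at least 1 alternative in 5 of the 10 probe sets (4 of Gja1 and that of Panx1), and in 3 of them also by scaling or an added constant alone, where the means are close to 0. The cause was not tested. Signals under 200 are read without a detection call, which limits Gja4, Gja5, Gjb2, Gjb6, Panx2 and the dimmer probe sets of Gja1 and Gjd2.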
